A study of Rattus norvegicus with 10 samples.

Results

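SOX6-only sites with H3K4me3 are the intervals of the SOX6 peak list that overlap an H3K4me3 interval by 1 bp or more and overlap no SOX9 interval. There were 3827 of them among 19355 SOX6 sites in RCS cells, a line derived from a rat chondrosarcoma, a cartilage tumour. The members were selected on their measured overlaps with SOX6, SOX9 and H3K4me3 intervals, so those values are a description and support nothing below. The readouts that the rule did not use are H3K27ac, H3K4me1 and H3K9me3, each from its own immunoprecipitation.

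The series maps where the cartilage factors SOX9 and SOX6 and a set of histone marks lie in this one cell line, by chromatin immunoprecipitation with sequencing. Of the 10 samples, 6 are immunoprecipitations (SOX9, SOX6, H3K27ac, H3K4me1, H3K4me3 and H3K9me3) and 4 are inputs made with no antibody, 1 each for SOX9, SOX6 and H3K27ac and 1 for the 3 methylation marks together. All come from RCS cells with no further treatment or genotype given in the labels. Each antibody has 1 library, so there is no replicate error, no p-value is given, and the 95% intervals below cover counting error only.

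SOX6 belongs to the SoxD group of transcription factors, which bind DNA through a high-mobility-group box and have no known activation domain of their own. In growth-plate cartilage it acts beside SOX9, the factor that directs chondrocyte differentiation. H3K4me3 is laid down around the start sites of active or poised genes, H3K4me1 is typical of enhancers and of the flanks of active promoters, H3K27ac marks active promoters and enhancers, and H3K9me3 marks heterochromatin. No gene annotation of the rn5 build was used here, so an H3K4me3 interval is not called a promoter and no site is assigned to a gene.

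The members were modest peaks compared with sites where both factors were called. The SOX6 score, a number the authors deposited with each peak on a scale that no source used here states, had a median of 87.6 (quartiles 63.4 and 145) in the members and reached 2970. The median was 202 in the 3767 SOX6 sites that overlap both H3K4me3 and SOX9, here called shared sites. The SOX6-only sites without H3K4me3, 6985 in number, had a median of 71.0. Members were 434 bp wide in the median, against 660 bp for shared sites. When all SOX6 sites were divided into 5 equal classes by score, the members were spread as 21.4%, 26.3%, 24.7%, 18.5% and 9.20% from the lowest to the highest class.

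The rule rests on interval edges, and few members sat close to them. The overlap with H3K4me3 was under 50 bp in 20 members, with a smallest value of 4 bp, and 28 SOX6-only sites missed H3K4me3 by under 50 bp. The median SOX6 score was 66.1 in the first set and 68.0 in the second. A SOX9 site lay under 50 bp away from 69 members, whose median SOX6 score was 90.9, and 18 shared sites touched SOX9 by under 50 bp, with a median of 90.6. An absent SOX9 interval means that none was called in the list, not that SOX9 was absent from the DNA.

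Members lay inside H3K4me3 intervals, away from the ends. The centre of the site fell inside the interval in 96.8% of members (95% Wilson interval 96.2% to 97.3%), and the whole site did in 84.9% (83.8% to 86.0%). For shared sites, which are wider, the shares were 91.5% and 64.2%. The 5.33 percentage points between the shares with the centre inside are a description, since the rule used overlap with H3K4me3 and with SOX9. Only 9 members touched 2 or more H3K4me3 intervals.

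The distance from a member's centre to the nearer end of its H3K4me3 interval had a median of 578 bp (quartiles 329 and 912 bp), and 57.2% of the centres inside lay 500 bp or more from an end. Expressed as a share of the interval's width, where 0% is an end and 50% the middle, the median position was 30.9% (quartiles 20.3% and 40.7%). Each of 5 equal zones from end to middle would hold 20% of centres placed evenly. From the end inward the zones held 7.58%, 16.8%, 23.7%, 24.9% and 27% of the members. The outermost zone was therefore thinly filled and the inner 3 held similar shares. The median position was 31.9% in shared sites and 33.5% in the 2231 SOX9-only sites with H3K4me3, so the members lay slightly closer to an end than SOX9-only sites did. SOX9-only sites come from another antibody and another peak list. Comparisons with them, here and below, cannot separate antibody and list from the factor.

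**Figure D1:**
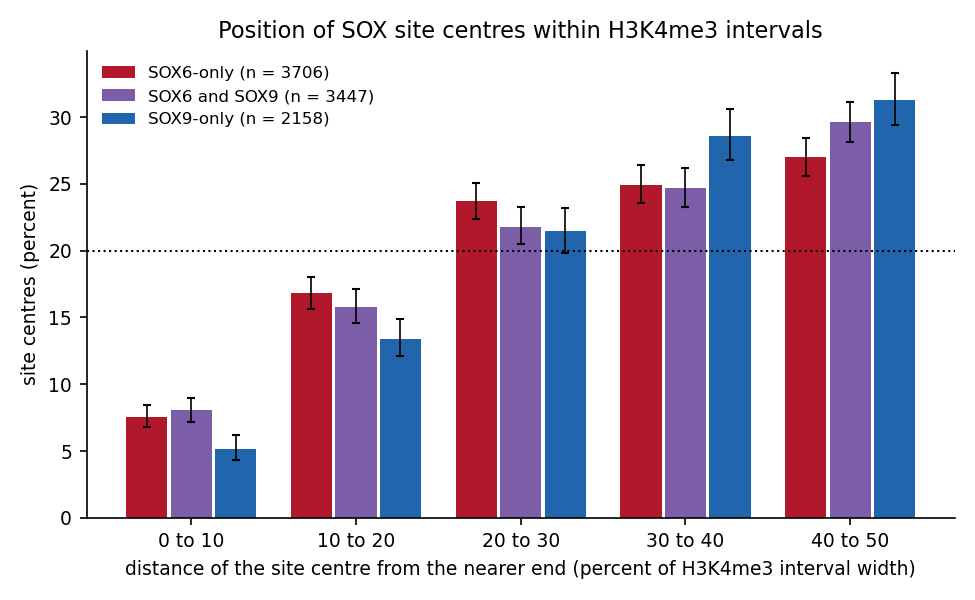
Share of site centres (y axis, percent) in 5 zones of the H3K4me3 interval, from the nearer end to the middle (x axis, percent of interval width), for 3706 SOX6-only, 3447 shared and 2158 SOX9-only sites whose centre lies inside the interval. Bars carry 95% Wilson intervals and the dotted line marks 20%; in all classes the outermost zone is lowest, with 7.58% of the SOX6-only centres.

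The members lay in wide, high-scoring H3K4me3 intervals more often than shared sites did. The H3K4me3 interval of a member was 2145 bp wide in the median (quartiles 1297 and 3110 bp), against 1509 bp over all 23116 H3K4me3 intervals. With each interval counted once, the 3363 that held a member had a median width of 2017 bp. Scores of H3K4me3 pile up at 3100, so the intervals were sorted into a top class at 3100 or above, an upper class between the list median of 1674 and that value, and a lower class at or below the median. Of the members, 59.5% (57.9% to 61.0%) lay in the top class, 8.15% in the upper and 32.4% in the lower class. With each interval counted once, 56.9% (55.3% to 58.6%) of those with a member were in the top class, against 42.5% of all H3K4me3 intervals.

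Shared sites showed the opposite balance, with 34.8% in the top class and 59.1% in the lower. The difference in the share of the top class was 24.7 percentage points (22.5 to 26.8). SOX9-only sites resembled the members, with 63.7% in the top class, a difference of -4.27 points (-6.78 to -1.73). The SOX6 score of the members hardly followed the class of H3K4me3. Its median was 88.7 in the top, 86.1 in the upper and 86.2 in the lower class.

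The share of intervals with a member and the number of members per length of H3K4me3 gave different pictures. Of all H3K4me3 intervals, 14.5% (3363) held a member. From width quintile 1, the narrowest, to width quintile 5 of the H3K4me3 intervals the share rose through 7.14%, 11.3%, 13.4%, 14.5% and 26.4%. Per 10 kb of H3K4me3, however, the same classes held 1.21, 1.19, 0.954, 0.770 and 0.988 members, so the density was highest in the 2 narrow quintiles and lowest in quintile 4. Sites were counted by overlap and not by centre, so a site reaching past the end of a narrow interval counts in full. This raises the density of narrow intervals, by an amount that was not tested. The lower, upper and top score classes held 1.10, 1.07 and 0.895 members per 10 kb. Shared sites fell much more steeply over the same classes, from 2.03 per 10 kb in the lower to 0.517 in the top class. Among H3K4me3 intervals of like width, no difference between the top class and the other classes had an interval that excludes 0. In width quintile 5 the shares were 26.4% and 26.6%, a top-class excess of -0.194 points (-7.13 to 5.81), and in quintile 4 they were 14.1% and 16.0% (-1.87 points, -4.65 to 0.667). In quintile 1, with 17 intervals of the top class, they were 17.6% and 7.10% (10.5 points, -0.939 to 33.9).

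**Figure D2:**
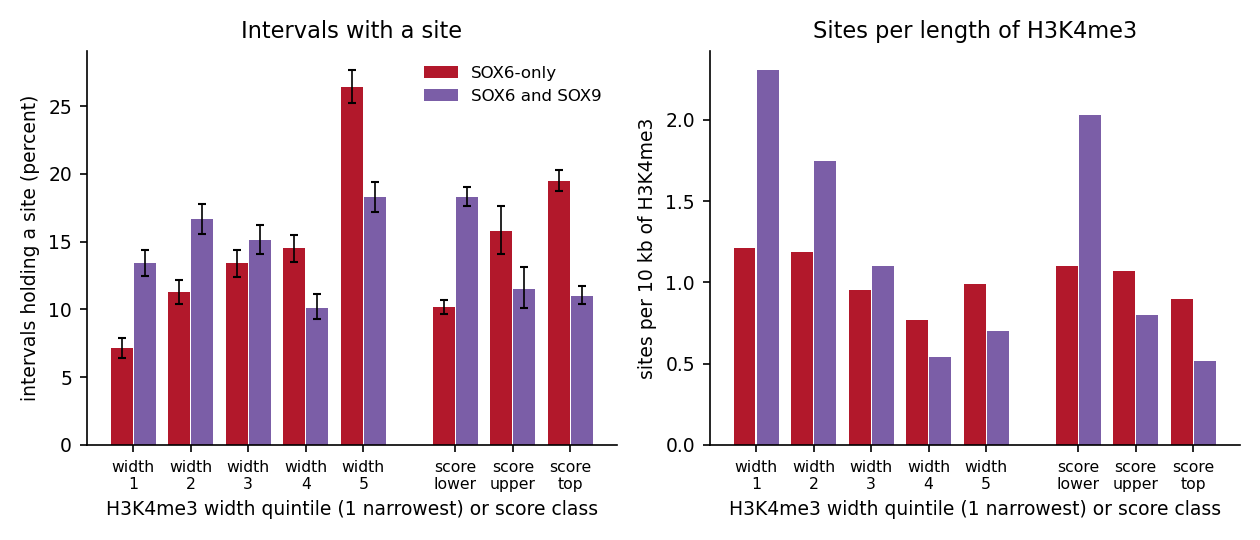
H3K4me3 intervals by width quintile (1 is narrowest) and score class (x axes). The left panel gives the percent of intervals that hold a SOX6-only or a shared site with 95% Wilson intervals, and the right panel the number of sites per 10 kb of H3K4me3; the widest quintile holds a SOX6-only site in 26.4% of intervals but only 0.988 per 10 kb.

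Most intervals with a member held a single one. There were 2959 with 1 member, 344 with 2, 53 with 3, 6 with 4 and 1 with 6. The interval with 6 members lies on chromosome 1 from 235503378 to 235511811 (rn5), spans 8434 bp and also holds 2 SOX9 sites. Its members score from 52.7 to 550 and their centres span 5854 bp. H3K27ac covers 90.2% of it and H3K4me1 covers 0%. There are 6 intervals with 4 members, and the 4 of them whose best member scores highest are described here. All 4 have an H3K4me3 score of 3100, and H3K27ac covers 90.8% or more of each. One of them, on chromosome 17 from 1082345 to 1088586, is covered to 82.0% by H3K4me1, the other 3 to between 24.1% and 25.9%. The widest H3K4me3 interval with a member, on chromosome 4 from 232960962 to 232975254, measures 14293 bp and holds 2 members and 2 SOX9 sites.

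Acetylation was almost general at the members. H3K27ac overlapped 3574 of the 3827, or 93.4% (92.6% to 94.1%), against 75.7% of all SOX6 sites. By whole interval, 94.7% (93.9% to 95.4%) of the H3K4me3 intervals with a member met H3K27ac, against 85.4% of all H3K4me3 intervals. The share was 44.0% in SOX6-only sites without H3K4me3, and the members stood 49.4 percentage points above it (47.9 to 50.7). It was 98.6% in shared and 97.0% in SOX9-only sites with H3K4me3. The difference, members minus shared sites, was -5.18 points (95% Newcombe interval -6.07 to -4.32), and members minus SOX9-only sites gave -3.61 points (-4.65 to -2.52). Among sites with the mark, the H3K27ac interval was at the top score in 55.7% of members, 78.2% of shared and 64.8% of SOX9-only sites.

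The gap to shared sites was present at every level of SOX6 score. Within each of the 5 score classes it lay between -5.45 and -3.56 points, and all 5 intervals excluded 0. It was larger in weakly marked H3K4me3 intervals. In the lower class 85.5% of members and 97.8% of shared sites had H3K27ac, so the members differed by -12.3 points (-14.4 to -10.3). In the top class 98.0% and 99.7% had it, and the members differed by -1.72 points (-2.41 to -1.02).

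H3K4me1 split the members. It overlapped 2339 of them, or 61.1% (59.6% to 62.7%), against 74.3% of all SOX6 sites. Counted by whole H3K4me3 interval, which is wider than a site, 88.9% (87.8% to 89.9%) of those with a member met H3K4me1, against 78.5% of all H3K4me3 intervals. The mark was thus often in the interval of a member without reaching the site. In shared sites the share was 79.6%, and members minus shared sites gave -18.5 points (-20.5 to -16.5). In SOX9-only sites it was 58.7%, and the members' difference of 2.40 points had an interval that spans 0 (-0.154 to 4.96). Over the base at the site centre, where the width of a site plays no part, H3K4me1 was present in 47.8% of members, 63.4% of shared and 39.1% of SOX9-only sites. There the members differed by -15.6 points from shared sites (-17.8 to -13.4) and by 8.69 points from SOX9-only sites (6.11 to 11.2).

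The H3K4me1 gap to shared sites varied with the score of the H3K4me3 interval. By overlap with the site, the gap averaged within the 3 H3K4me3 score classes was -10.6 points (-12.9 to -8.39). In the lower class the gap was -11.4 points (-14.0 to -8.94). In the upper class the gap was -21.8 (-28.9 to -14.1) and in the top class -8.68 points (-12.0 to -5.31). Over the site centre it was -6.95 points in the lower class, with an interval below 0, -14.5 points in the upper class (-22.6 to -6.00) and -2.73 points in the top class, where the interval spans 0 (-6.01 to 0.523). Averaged within classes of SOX6 score, overlap with the site differed by -12.0 points (-14.4 to -9.47). In the lowest of these classes the difference was -6.20 points and its interval spans 0 (-12.7 to 0.618), and in the highest it was -23.8 points (-29.2 to -18.5).

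Averaged over the members, H3K4me1 was level around the site rather than dipping at the centre. It covered 47.8% of centres, 47.2% of positions 500 bp to either side, 44.6% at 1000 bp and 25.7% at 3000 bp. At shared sites it rose from 63.4% at the centre to 67.4% at 600 bp, and at SOX9-only sites from 39.1% to 49.7% at 950 bp. H3K27ac fell steadily from 91.6% at the member's centre to 78.1% at 500 bp, 55.3% at 1000 bp and 17.8% at 3000 bp. Of the members with no H3K4me1 overlap, 64.0% had an H3K4me1 interval within 1000 bp, at a median gap of 620 bp over all such members. Within 2000 bp of the centre, 22.3% of all members had H3K4me1 on both sides but not over the centre, 20.9% on 1 side, and 8.91% on neither. The share with both sides but not the centre was 22.6% in shared and 31.4% in SOX9-only sites. Such a gap at single sites was thus about as frequent in members as in shared sites. The level average also joins unlike positions. H3K4me1 lay over 76.2% of member centres in the outermost 10% of the H3K4me3 interval and 38.5% at 40 to 50%.

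**Figure D3:**
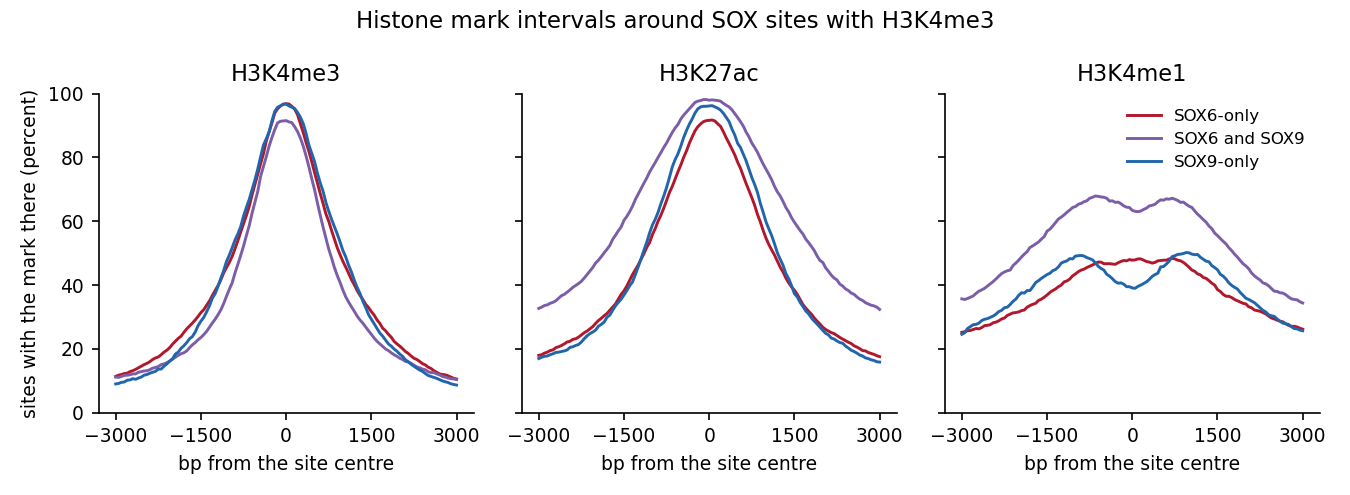
Percent of sites (y axis) with an H3K4me3, H3K27ac or H3K4me1 interval over each position from 3000 bp before to 3000 bp after the site centre (x axis, bp), for SOX6-only (n = 3827), shared (n = 3767) and SOX9-only (n = 2231) sites with H3K4me3. As an average over sites, H3K4me1 at SOX6-only sites stays near 47% across the central 1000 bp, while the averages of the other classes dip at the centre.

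The 2 marks moved in opposite directions with the distance in bp from the site centre to the nearer end of its H3K4me3 interval. With the centre under 100 bp from an end, H3K27ac was present in 79.1% of members and H3K4me1 in 81.4%. With the centre 1000 bp or more from the ends, the shares were 98.8% and 33.8%. Between them, at 100 to 250, 250 to 500 and 500 to 1000 bp, H3K27ac rose through 84.2%, 90.4% and 97.5% while H3K4me1 fell through 71.1%, 68.9% and 63.0%. The 121 members with the centre outside the interval had H3K4me1 in 93.4% and H3K27ac in 87.6%. Members under 250 bp from an end carried H3K4me1 more often than those at 500 bp or more, by 21.2 points (16.9 to 25.2).

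By relative position, from the end to the middle of the interval, H3K27ac was at 86.5%, 95.3%, 94.3%, 93.4% and 94.0% in the 5 zones, with no rise past the outermost zone. H3K4me1 fell through 79.7%, 69.0%, 59.3%, 55.2% and 54.2%. Distance in bp and width of the interval are tied, since only a wide interval has bases far from an end. Within width quintile 5 of H3K4me3 intervals, members under 250 bp from an end had H3K4me1 in 78.4% and the rest in 50.2%, a difference of 28.1 points (17.2 to 36.4). The difference was -1.85 points (-9.89 to 5.47) in width quintile 2, -2.04 points (-13.4 to 8.63) in quintile 3 and 13.3 points (0.993 to 23.8) in quintile 4. From width quintile 1 to 5 the share of members with H3K4me1 went through 77.9%, 79.8%, 62.3%, 56.6% and 52.5%, and that with H3K27ac through 79.1%, 85.5%, 93.4%, 96.4% and 97.9%. By score class of H3K4me3, H3K4me1 went from 79.6% in the lower through 59.6% in the upper to 51.3% in the top class.

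**Figure D4:**
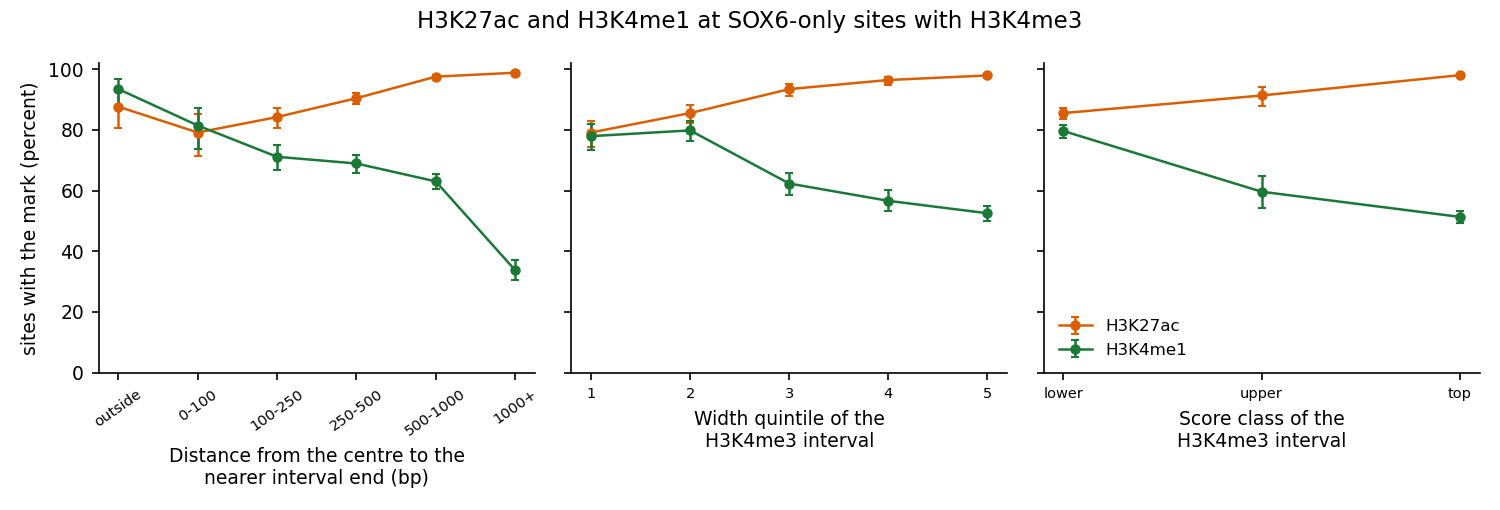
Percent of SOX6-only sites with H3K4me3 that overlap H3K27ac or H3K4me1 (y axis, with 95% Wilson intervals), by distance of the site centre from the nearer end of the H3K4me3 interval in bp, by width quintile and by score class of that interval (x axes). H3K27ac rises to 98.8% and H3K4me1 falls to 33.8% at 1000 bp or more from the end.

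By combination of marks, 2200 members (57.5%) had both H3K27ac and H3K4me1, 1374 (35.9%) had H3K27ac without H3K4me1, 139 (3.63%) had H3K4me1 without H3K27ac and 114 (2.98%) had neither. Over all SOX6 sites the shares were 62.8%, 12.9%, 11.5% and 12.8% in the same order. The pair of H3K27ac with no H3K4me1 is the pattern usual at the core of active promoters. It was found at 753 of the 3767 shared and 893 of the 2231 SOX9-only sites. Of the members with this pattern, 79.5% lay in top-class H3K4me3, against 51.7% of those with both marks. The members with neither mark lay mainly in weak H3K4me3, with 67.5% in the lower class. H3K9me3 touched 37 members, or 0.967% (0.702% to 1.33%), against 3.01% of all SOX6 sites. It touched 1.73% of shared and 2.20% of SOX9-only sites with H3K4me3, and 4.74% of SOX6-only sites without H3K4me3. Over the site centre the share was 0.679% in members, 0.611% in shared and 1.84% in SOX9-only sites.

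The 10 highest-scoring members all carried H3K27ac, and 2 of them carried H3K4me1, against 93.4% and 61.1% of all members. The 10 do not stand for high-scoring members in general. In the highest of the 5 SOX6 score classes, 62.8% of the 352 members had H3K4me1. The highest, on chromosome 3 from 181469463 to 181470218 (rn5), has a SOX6 score of 2970 and lies 1056 bp from the nearer end of an H3K4me3 interval of 3822 bp with a score of 3100. It overlaps an H3K4me1 interval, and the nearest SOX9 site is 282233 bp away. The second, on chromosome 1 from 206216275 to 206217482, scores 2795 and has no H3K4me1, with a SOX9 site 317 bp away in the same H3K4me3 interval. The tenth, on the X chromosome from 72848897 to 72849523, scores 1278 although its H3K4me3 interval scores 60.5 and its centre lies outside that interval. Of the 10, 8 lie in H3K4me3 of the top score.

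Of the members with neither active mark, the highest-scoring lies on chromosome 18 from 26576379 to 26576757. It has a SOX6 score of 599 in an H3K4me3 interval of 617 bp, which scores 100, and the nearest H3K4me1 interval is 35181 bp away. The next 2 lie side by side on chromosome 17, from 57834579 to 57834865 and from 57834929 to 57835039, with SOX6 scores of 432 and 390. Both sit near the middle of a top-class H3K4me3 interval of 7636 bp. H3K27ac overlaps neither site, though it meets that H3K4me3 interval elsewhere.

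Some members shared their H3K4me3 interval with a SOX9 site that they did not touch. A SOX9 site lay elsewhere in the interval for 768 members (20.1%, 18.8% to 21.4%), and a SOX9 site was within 1000 bp of 17.6% of members. The median gap was 23776 bp. Counted by interval, 636 of the 3363 H3K4me3 intervals with a member (18.9%) held a SOX9 site, against 23.2% of all H3K4me3 intervals, and since the rule bars SOX9 at the site, nothing is read from that gap. Members with SOX9 in their interval had H3K27ac in 97.0% and the others in 92.5%, 4.52 points apart (2.82 to 5.92). H3K4me1 was at 60.3% and 61.3%, a difference of -1.04 points (-4.94 to 2.78). The intervals with SOX9 were also wider, with a median of 3172 bp per member against 1941 bp, and the part of width in the H3K27ac difference was not tested.

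H3K4me3 intervals that held a member and no SOX9 site were compared with those that held no SOX site at all. H3K27ac overlapped 93.7% of the first (n = 2727) and 79.3% of the second (n = 15022), a difference of 14.3 points (13.2 to 15.4). The difference was found in the narrower intervals. It was 25.4 points (20.4 to 29.9) in width quintile 1, from 54.0% to 79.4%, and 17.3 and 8.29 points in quintiles 2 and 3. In quintile 4 it was 1.38 points (-0.0416 to 2.30) and in quintile 5 it was 0.284 points (-0.397 to 0.715), with shares of 99.8% and 99.5%. H3K4me1 followed the same course, with 27.3 points (22.2 to 31.7) in quintile 1 and 0.715 points (-1.22 to 2.37) in quintile 5. Narrow H3K4me3 intervals with SOX6 and no SOX9 carried each of the 2 marks more often than narrow intervals with no SOX site. This was not particular to SOX6. In width quintiles 1 to 3, intervals with SOX9-only sites and no SOX6 had H3K27ac in 87.4%, 92.0% and 99.0%. The shares with SOX6 and no SOX9 were 79.4%, 85.1% and 94.8%. H3K4me1 was at 79.7%, 84.1% and 83.1% with SOX9 and at 79.4%, 83.6% and 83.4% with SOX6.

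The H3K4me1 share of the members moved with the amount of input DNA per chromosome. Input reads per base, relative to the median chromosome and averaged over the 4 inputs, ran from 0.595 on X to 2.05 on chromosome 16. The inputs held from 36873004 to 131858579 reads. H3K4me1 was found at 22.8% of the members on X and at 78.8% on chromosome 9. Over the 21 chromosomes the correlation with the input was r = 0.863 (Spearman's rho 0.919), a description over points that share the same libraries. For H3K27ac at the members it was r = 0.0515 (rho -0.170). Over all H3K4me3 intervals the correlation with input was r = 0.737 (rho 0.936) for H3K4me1 and r = 0.451 (rho 0.549) for H3K27ac.

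On chromosomes 7, 9, 11 and 16, with an input above 1.5 times the median, 76.7% of members (73.6% to 79.5%) had H3K4me1. On chromosomes 15, 17, 20 and X, with an input under 0.8 times the median, 39.6% (34.8% to 44.6%) had it. All H3K4me3 intervals moved the same way, with 88.9% and 55.6%. The difference from shared sites was -9.46 points (-13.1 to -5.82) on the raised, -19.4 (-21.9 to -17.0) on the middle and -20.7 (-28.2 to -12.8) on the low chromosomes. The part of the input level in the H3K4me1 share was not tested, and levels on different chromosomes are not compared further.

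**Figure D5:**
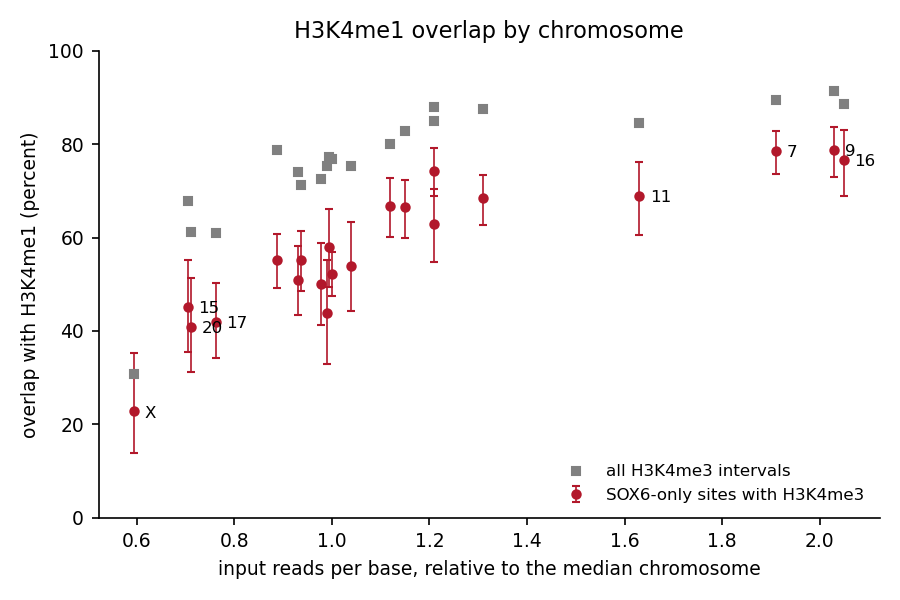
Percent of SOX6-only sites with H3K4me3 that overlap H3K4me1 on each of 21 chromosomes (y axis, with 95% Wilson intervals), against the mean input read density relative to the median chromosome (x axis). Grey squares give the same share for all H3K4me3 intervals; the members run from 22.8% on X to 78.8% on chromosome 9, and chromosomes above 1.5 or under 0.8 are named.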

How the data were processed

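Per the labels, each of the 10 samples is 1 library from RCS cells, so groups are single libraries and no test across replicates was possible. The 6 immunoprecipitations were deposited as interval lists whose names carry that of the caller MACS. Each interval has a score that the authors deposited, from about 50 upward with many at 3100; no source used here states its scale, so it was used within a list alone. The 4 inputs were deposited as raw read counts per chromosome, per the file headers. The submitters' processing notes name CASAVA 1.8 and build rn5. Per the labels' titles, H3K4me3, H3K4me1 and H3K9me3 share 1 input and each other antibody has its own. No source used here states the caller settings or whether these inputs were used in calling, and a change in either would move interval edges and hence membership. No depth was used for the immunoprecipitated libraries.

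Overlaps of 1 bp or more were found with Python 3.11.15, NumPy 2.4.6 and pandas 2.3.3, and the search was tested on simulated data. A site was assigned to the H3K4me3 interval with which it shares most bases. Coordinates count from 1. Quintiles were formed over a whole list. Shares carry Wilson and differences Newcombe 95% intervals (SciPy 1.17.1), and averages within classes are weighted by members. Input density is reads without a mismatch over the last interval end of the chromosome. Neighbouring sites are not independent. Members, comparisons and alternatives were chosen with earlier results of these data known. Named regions come from the 10 highest-scoring members, the 5 H3K4me3 intervals with most members (ties by highest member score), the 5 highest-scoring members with neither active mark and the 3 widest H3K4me3 intervals with a member. Coordinates are printed for a part of each set.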

Additional observations from a re-analysis of the deposited data

How the results depend on the processing

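No paired analysis was possible because each antibody has 1 library, and for the same reason no replicate could be left out. The differences from shared sites in both marks and the H3K27ac difference from SOX9-only sites kept their sign, with intervals that exclude 0, under each alternative run for them. With H3K4me3 above its median score they shrank by over 1.5 times, to -2.49 points for H3K27ac and -11.0 for H3K4me1 against shared sites and to -1.72 for H3K27ac against SOX9-only sites. Within single strata the H3K27ac difference from SOX9-only sites stayed negative, but some intervals span 0. These were raised-input (-2.17 points, -4.62 to 0.535) and low-input chromosomes (-4.03, -8.54 to 1.78) and the upper H3K4me3 class (-4.52, -8.86 to 1.29). The intervals excluded 0 on the middle chromosomes, in the lower and top classes and in each H3K4me3 width quintile. The H3K4me1 difference from SOX9-only sites depended on the setting. It was -3.44 points with SOX sites above the median score of their list, the opposite sign, with an interval that spans 0. Its interval excluded 0 with an overlap of 0.5 of the narrower interval (7.26 points), H3K4me3 above its median score (3.49), sites of 400 bp around the centre (7.51), 1 site per H3K4me3 interval (3.84) and the mark over the site centre (8.69). The cause was not tested. The number of members was 1494 with SOX6 sites above the median score, which keeps fewer sites by construction. The H3K27ac share, 93.4% as reported, was 92.0% with overlap of 0.5, 94.3% with SOX sites above the median, 97.2% with H3K4me3 above its median and 91.6% over the centre. The H3K4me1 share, 61.1% as reported, was 47.0%, 63.8%, 52.3% and 47.8% in that order, 62.8% with 1 site per interval and 57.1% without chromosomes 7, 9, 11 and 16. The median position in the interval was 32.2% and 29.8% with SOX sites or H3K4me3 above their medians, 31.7% with no SOX9 site within 1000 bp and 30.0% with H3K4me3 joined within 1000 bp. The share in the top class was 87.9% with H3K4me3 above its median, which leaves out the lower class, 61.7% with joined intervals and 57.0% with 1 site per interval. Averages within H3K4me3 score classes, the mark over the centre and the window of chromosome 17 were chosen after seeing the data. No read depth was used for the immunoprecipitated libraries, so a missing interval may be a weak signal.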

Other observations

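The members without H3K27ac were not spread evenly. A window of 998 kb on chromosome 17, from 57825029 to 58823457 (rn5), held 26 members, second in number only to a window on chromosome 7 from 11611949 to 12594693 with 27, among windows of at most 1 Mb that do not overlap. Of the 26, 10 had H3K27ac, which is 38.5% (22.4% to 57.5%), and 13 had neither H3K27ac nor H3K4me1. On the chromosome 7 window 26 of the 27 had H3K27ac. The window was singled out after its values were seen, so it is described and not tested.

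The SOX6 sites there were not weak. Their scores ran from 53.1 to 1610 with a median of 135, above the median of 87.6 over all members. The window held 49 H3K4me3 intervals, of which 17 held a member and 30 met H3K27ac. Over all H3K4me3 intervals, 14.5% held a member and 85.4% met H3K27ac. The window also held 7 SOX9 sites and 1 shared site with H3K4me3. Of its 26 members, 9 lay in top-class H3K4me3, against 59.5% of all members. The members without H3K27ac lay far from that mark, at a median of 11450 bp. The input on chromosome 17 was below the median chromosome, at 0.762 times, and its part in the missing marks was not tested. The rest of chromosome 17 had H3K27ac at 88.9% of 117 members. Without the window, 93.8% of all members had H3K27ac and 101 of the 114 with neither mark remained.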
